A study of Caenorhabditis elegans with 4 samples.

Results

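HAM-1 binding regions on chromosome II of Caenorhabditis elegans were taken from the authors' combined list of ChIP-seq regions, as every region listed on that chromosome. They numbered 819 of 5713 regions in all, and the lists of the separate ChIP replicates held 692 of 4749 (replicate 1) and 328 of 2247 (replicate 2). The 4 other autosomes, with 3974 combined regions together, served as the comparison. All libraries came from strain OP102, fed hermaphrodite L1 larvae grown at 20 °C, and the labels give 2% formaldehyde for each. Its genotype lists the allele unc-119 (ed3) and the insertion wgIs102, which holds a ham-1 gene tagged with TY1, EGFP and FLAG beside a wild-type unc-119 copy. The labels list no ham-1 mutation and record the strain as not outcrossed. The transgene was introduced by particle bombardment, and anti-GFP antibody collected the tagged protein. The series has 2 ChIP libraries and 2 inputs, the inputs being extract set aside before immunoprecipitation, and every group shares this one strain and stage.

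The winged-helix protein HAM-1 acts in neuroblasts that divide asymmetrically, so that the daughters of a neural precursor take unlike fates. In ChIP-seq, DNA crosslinked to a protein is collected and sequenced, and a peak caller marks stretches with more reads than a control. The autosomes of this nematode are known for a gene-rich centre with little recombination and for outer arms with more repeats, more recombination and more repressive chromatin. Whole larvae were used, so binding in fewer cells and weaker binding in each cell cannot be told apart.

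For each region the authors' caller, PeakSeq, gave its limits on genome WS220 and a q-value. A q-value is a p-value adjusted for multiple testing. Lower q-values are called stronger below, which ranks regions within a list and is no measure of binding between lists, since read depth is unknown for every library. Intervals are 95% intervals that cover counting error alone and treat regions as independent. Regions of a library are not replicates of a condition and only 2 ChIP libraries exist, so no test was run. Values are from the combined list unless a replicate is named. Nothing below is shown to be particular to chromosome II.

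Chromosome II carried fewer HAM-1 regions for its length than the other autosomes together, though more than chromosome V. Over the 15.3 Mb from position 1 to the last called base it held 53.7 combined regions per Mb (50.1 to 57.5). The others together held 59.1 per Mb, which made the ratio 0.908 (0.841 to 0.979). The ratio was 0.923 (0.849 to 1.002) in replicate 1 and 0.932 (0.825 to 1.05) in replicate 2, where both intervals include 1. In the combined list chromosomes III (74.2 per Mb), I (65.4) and IV (57.8) were denser and V (45.7) was sparser. The intervals of II and IV overlapped. In replicate 2 the place of chromosome I changed, and II, at 21.5 per Mb, stood above both I (18.3) and V (18.4). By base pairs covered the distance shrank, with 3.10% of chromosome II inside a combined region against 3.25% of the others. In replicate 1 the order turned, with 2.62% on II and 2.60% on the others, and a block of wide regions described at the end is part of that value. Chromosome II holds 3446 protein-coding genes, and its 23.8 combined regions per 100 genes (22.2 to 25.5) exceeded those of V alone, at 19.1.

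The span of each chromosome was cut into 3 parts of equal length, called left arm, centre and right arm. Their borders follow length alone and were not set by recombination or chromatin. On II the regions were unevenly spread, with a sparse left arm, a dense centre and a right arm between them in density. The left arm held 179 combined regions or 35.2 per Mb (30.2 to 40.7), the centre 361 or 71.0 per Mb (63.9 to 78.7) and the right arm 279 or 54.9 per Mb (48.6 to 61.7). Replicate 1 gave 28.1, 60.8 and 47.2 per Mb in the same order, and replicate 2 gave 11.6, 27.7 and 25.2. The left arm was thus the lowest in each list, with an interval below those of the other two.

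**Figure D1:**
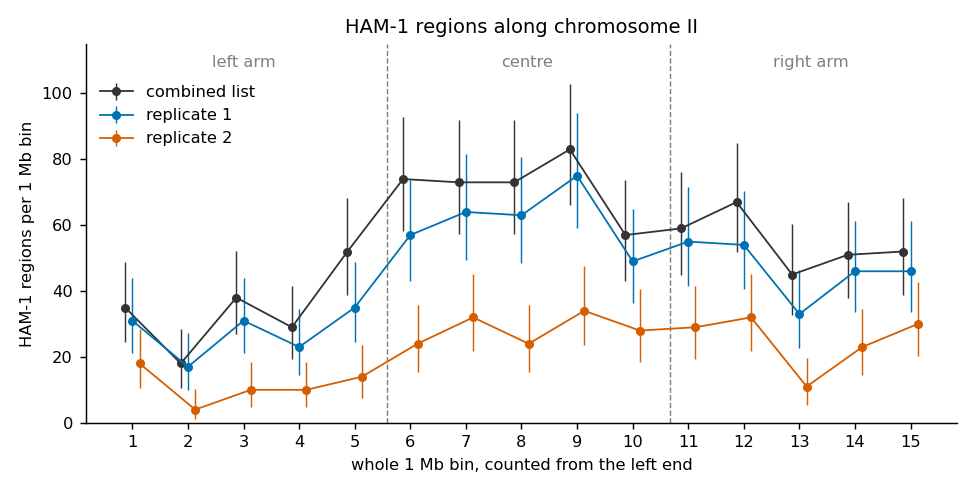
HAM-1 regions in each whole 1 Mb bin of chromosome II, counted from the left end, in the combined list and both replicate lists; points are counts, bars are exact 95% Poisson intervals and dashed lines mark the borders between centre and arms. Bins 1 to 4 are low in all lists, the combined count peaks at 83 in bin 9, and replicate 2 drops to 11 in bin 13.

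The centre was 1.58 times as dense as the outer parts (1.37 to 1.81), with 1.61 in replicate 1 and 1.51 in replicate 2. That ratio lay inside the range of the other autosomes, 1.38 on III to 1.72 on V. The left-to-right ratio did not. It was 0.642 on II (0.529 to 0.777), and 0.596 and 0.461 in replicates 1 and 2. On the others it ran from 0.836 on III (0.7096 to 0.984) to 1.297 on IV (1.10 to 1.53). The lowest ratio of another autosome was 0.840 in replicate 1 (III, 0.703 to 1.002) and 0.922 in replicate 2 (III, 0.712 to 1.19). The interval of II (0.481 to 0.736 in replicate 1 and 0.333 to 0.632 in replicate 2) met that of III in the combined list and in replicate 1, and lay below it in replicate 2. Of the 15 arms and centres of the 5 autosomes, the left arm of II was second lowest in the combined list and in replicate 1, after the right arm of V (34.01 and 27.985 per Mb), and lowest in replicate 2.

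**Figure D2:**
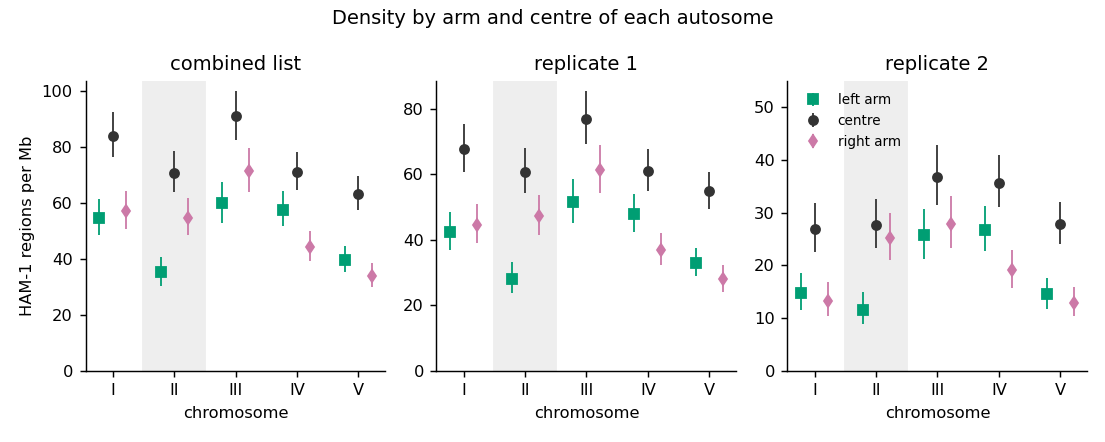
Regions per Mb in the left arm, centre and right arm of each autosome, in the combined list and in each replicate list; bars are exact 95% Poisson intervals and the grey band marks chromosome II. The centre is the highest point on each chromosome in each panel, and on II the left arm (35.2, 28.1 and 11.6 per Mb) lies below the right (54.9, 47.2 and 25.2).

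In steps of 1 Mb, the combined count on chromosome II ran from 18 to 83 over 15 whole bins, with a median of 52. The other autosomes had medians of 39 (V) to 77 (III), and their bins ran from 13 to 110. The first 4 bins of II together held 30 regions per Mb, bins 6 to 9 held 75.75, and bins 10 to 15 held 55.2. The same stretches held 25.5, 64.75 and 47.2 per Mb in replicate 1 and 10.5, 28.5 and 25.5 in replicate 2. Bin 2, from position 1000001 to 2000000, was the emptiest in every list with 18 combined, 17 replicate 1 and 4 replicate 2 regions. Bin 9, from 8000001 to 9000000, was the fullest in every list with 83, 75 and 34. Bin 1, at the very end of the chromosome, was fuller than bin 2 with 35 combined and 18 replicate 2 regions. A low point shared by the lists also occurred on the right, where bin 13 held 45 combined, 33 replicate 1 and 11 replicate 2 regions. Counts of the replicates followed each other over the 15 bins (Pearson's r = 0.896), a description of neighbouring stretches of 1 chromosome. The last 0.256 Mb held 13 combined regions.

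The shortage on the left was greatest among the strongest regions. Of the strongest 25% of the combined list (q-values up to 1.24e-12), chromosome II held 30 regions in its left arm, 92 in its centre and 79 in its right arm. The left-to-right ratio was 0.380 (0.241 to 0.585), whereas on the other autosomes it ran from 0.906 on III (0.657 to 1.25) to 1.74 on IV. In the weakest 25% (q-values from 0.000606) the counts on II were 59, 92 and 61, a ratio of 0.967 (0.665 to 1.41). The strongest 25% also gave the lowest ratio in replicate 1, 0.379 (0.229 to 0.608, which met the interval of III, 0.557 to 1.11), and in replicate 2, 0.257 (0.109 to 0.546) from 9 left and 35 right regions. The weakest 25% gave 0.614 (0.391 to 0.952) in replicate 1, below 1, and III gave 0.614 there too (0.410 to 0.911). A rise to about 1 on II was thus seen in the combined list and not in replicate 1. It was 0.700 (0.381 to 1.26) in replicate 2. A block of strong replicate regions in the right arm, described at the end, is part of these replicate counts. Without it the strongest 25% gave 0.397 in replicate 1 and 0.300 (0.125 to 0.648) in replicate 2, where the interval then met that of III (0.564 to 1.77). Left-arm regions had a median −log10 q of 4.61 in the combined list, against 5.23 in the centre and 6.07 on the right. Replicate 1 gave 4.10, 4.39 and 4.92, and replicate 2 gave 3.34, 4.56 and 4.48, so the left arm was lowest in each list and the order of the other parts turned in replicate 2.

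**Figure D3:**
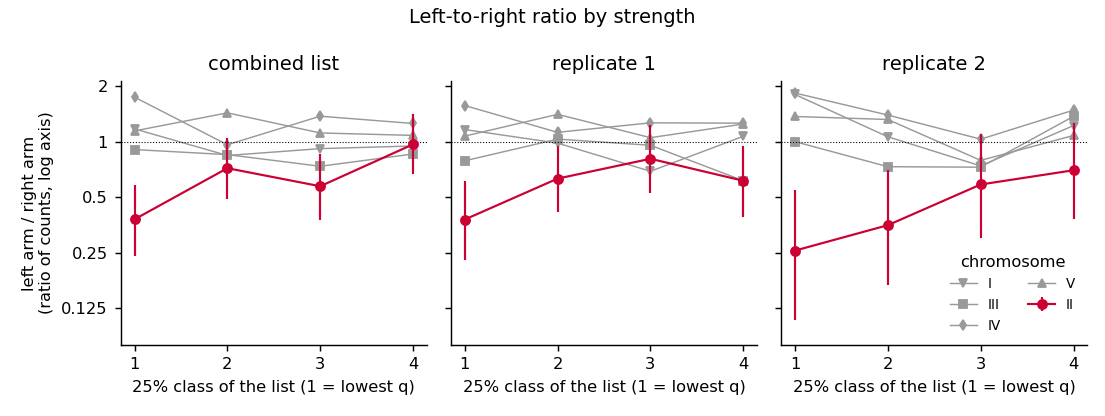
Number of regions in the left arm over that in the right arm (log axis) in 4 classes of 25% of each whole list, from lowest to highest q-value, for chromosome II (red, with exact 95% intervals) and the other autosomes (grey). In the strongest 25% II lies at 0.380, 0.379 and 0.257 in the 3 panels, and in the weakest at 0.967, 0.614 and 0.700.

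Neighbouring regions on chromosome II lay a median of 9878.5 bp apart from midpoint to midpoint (median's interval 8853 to 10946 bp). The medians of the other autosomes ran from 7875 bp on III to 10510 bp on V. Within II the median was 16101 bp (10654 to 20553) in the left arm, 8407 bp (7068 to 10025) in the centre and 9981 bp (8365 to 12351) on the right, and the interval of the left arm lay above that of the centre. Replicate 1 gave 21421, 10269 and 13045 bp and replicate 2 gave 49736.5, 22668 and 21979 bp. The left arm of II had the widest median spacing of the 15 arms and centres in each list, though in replicate 2 the left arm of V was close to it (48721.5 bp). Its combined interval overlapped those of the right arm of II and of several arms elsewhere, such as the right arm of V (11038 to 16340 bp).

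The longest stretch of chromosome II without a combined region measured 260591 bp and lay in bin 2, from 1402701 to 1663291. The next, of 238671 bp, ran from 1820320 to 2058990. Both were free of regions in both replicates. The stretches of 138145 bp from 2059406 and of 137250 bp from 2197859 followed directly, each beyond a single combined region, and were empty in both replicates too. In replicate 2 a single stretch of 1101872 bp, from 1402587 to 2504458, held no region, while 12 combined and 6 replicate 1 regions lay wholly inside it. The remaining long stretch, 149020 bp from 14645795 in the right arm, held 1 replicate 1 region inside it and none of replicate 2. Stretches over 50 kb numbered 70 on II, 51 on I, 38 on III, 74 on IV and 102 on V, which differ in length.

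Close neighbours were somewhat fewer on chromosome II. Midpoints under 2000 bp apart made up 101 of its 818 combined gaps, 12.3%, against 13.8% (V) to 17.5% (III). In replicate 1 the share was 10.6%, against 11.7 to 14.7%. In replicate 2 it was 4.89%, above the 4.73% of chromosome I, so the order did not hold in every list. In all, 185 combined regions on II (22.6%) lay in 84 runs of such neighbours, against 25.2% (V) to 30.5% (III) on the other autosomes. Of the 185 regions, 86 lay in the centre, which held 44.1% of all combined regions on II. The longest run had 5 regions over 6252 bp, from 8784209 to 8790460. Its members were 738 to 1253 bp wide, and 1 was held by both replicates and 4 by replicate 1 alone.

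Median widths were alike along the chromosome and between autosomes. The median width on II was 424 bp (414 to 442, quartiles 322.5 and 611 bp), and the other autosomes had medians of 426 to 436.5 bp with overlapping intervals. The left arm, centre and right arm had medians of 419, 433 and 423 bp. Wide regions were about as frequent on II as elsewhere. Of the combined regions, 84 on II (10.3%) were 1000 bp or wider, against 9.39% on the other autosomes and 10.2% on I alone. On II these were 12 on the left (6.70% of the regions there), 47 in the centre (13.0%) and 25 on the right (8.96%), and the centre was also highest on the other autosomes together (8.94%, 10.7% and 7.91%). In replicate 1 the counts were 6, 38 and 23, and in replicate 2 they were 0, 11 and 13. The counts on the right include 3 regions in replicate 1 and 6 in replicate 2 from the block described at the end. Regions of 2000 bp or wider numbered 26, or 3.17% of those on II against 2.14% on the other autosomes. At the other end, 27 regions on II (3.30%) were narrower than 50 bp, and the narrowest spanned 2 bp.

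Support by the replicates was close to that of the whole list. On chromosome II, 312 of 819 combined regions, 38.1% (34.8 to 41.5%), overlapped regions of both replicates by 1 bp or more, against 37.2% of the whole combined list. Another 339, or 41.4%, overlapped replicate 1 alone (41.9% of the whole list) and 166, or 20.3%, overlapped neither (20.2%). Only 2 overlapped replicate 2 alone, 0.244% (0.067 to 0.886%), against 0.788% of the whole list. The share in both replicates was 38.5% on III, 37.2% on V, 44.95% on IV and 26.8% on I. Since 96.9% of all replicate 2 regions overlapped replicate 1, this share largely follows how many regions replicate 2 held. That list had 276 regions on I beside 986 combined, and 475 on IV beside 1010 combined. The difference between II and the other autosomes was 1.18 percentage points (-2.42 to 4.87), and −2.17 points when chromosome I was left out, so its direction rested on that chromosome. Averaged over 10 equal classes of the combined list by q-value, with chromosome I among the others, it was 2.37 points.

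Strength and width went with support on II. The combined list and the replicate lists come from the same ChIP libraries, so q-value and support are not independent measures. All 65 regions in the strongest 10% of the list were in both replicates (401 of 401 on the other autosomes). So were 85 of 89 in the second class of that size (95.5%, against 96.25%). In the fourth class 52 of 88 were (59.1%, 48.6 to 68.8%, against 46.6% on the other autosomes, 41.9 to 51.4%). That was the widest distance of the 10 classes, and in the seventh II was lower (1.27% against 2.95%). Chromosome I lowers the comparison. In the second 25% of the list its parts had 14.5 to 18.1% in both replicates, against 41.4 to 64.5% on III, IV and V and 47.0 to 54.9% on II. In the weakest 10% none of 88 was (none of 375 on the other autosomes), and 61 overlapped neither replicate. Regions in both replicates had a median width of 532 bp and a median q-value of 1.15e-14, those in replicate 1 alone 380 bp and 4.46e-05, and those in neither 306 bp and 0.00266. Median widths of these classes on the other autosomes were near to those, at 552, 386 and 303 bp. None of the 27 regions under 50 bp was in both, and none of 133 on the other autosomes was. Of the 26 regions of 2000 bp or wider 21 were, 80.8% (62.1 to 91.5%, against 88.2% on the other autosomes), and none of those 26 overlapped neither list. A wide region meets a 1 bp rule more easily.

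**Figure D4:**
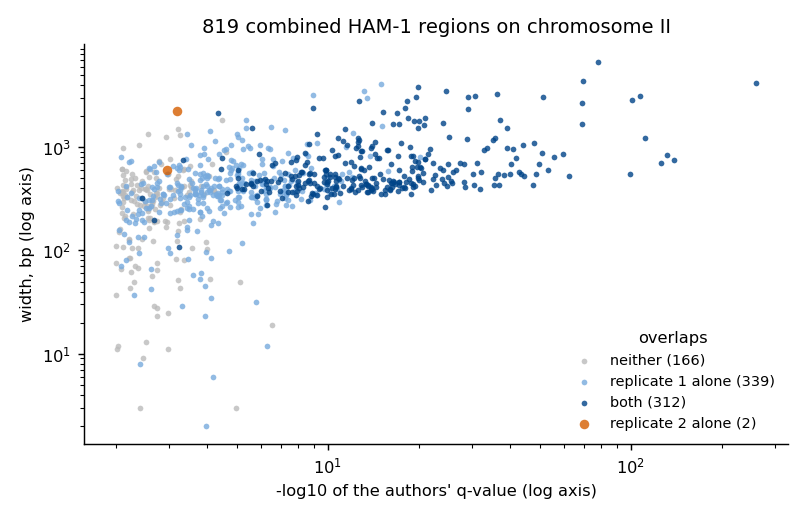
Width against −log10 of the authors' q-value (both log axes) for the 819 combined regions on chromosome II, coloured by the replicate lists each overlaps. The 312 regions in both replicates lie to the right, with a median width of 532 bp, and the 166 in neither lie at the left edge, with a median of 306 bp.

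Along the chromosome, support was lowest on the left. Both replicates held 32.4% (26.0 to 39.6%) of the combined regions in the left arm, 37.4% (32.6 to 42.5%) in the centre and 42.7% (37.0 to 48.5%) on the right. On the other autosomes together the shares were 36.4%, 39.2% and 34.0%. The intervals on II overlap. Within the strongest 25% of the list the shares on II were 90%, 97.8% and 94.9%, and within the second 25% they were 52.9%, 47.0% and 54.9%, so the order of arms and centre did not hold at like strength. Single bins varied more. Their shares also depend on the number of regions replicate 2 held, 30 in bin 15, 4 in bin 2 and 11 in bin 13. Bin 15 had the highest share of the 80 whole autosomal bins, 30 of 52 regions or 57.7% (44.2 to 70.1%), and bin 1, at the other end, had 18 of 35 or 51.4% (35.6 to 67.0%). Bins 2 and 13 had 22.2% each (4 of 18 and 10 of 45), which was the lowest outside chromosome I. In bin 5, 19 of 52 regions (36.5%) overlapped neither replicate.

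**Figure D5:**
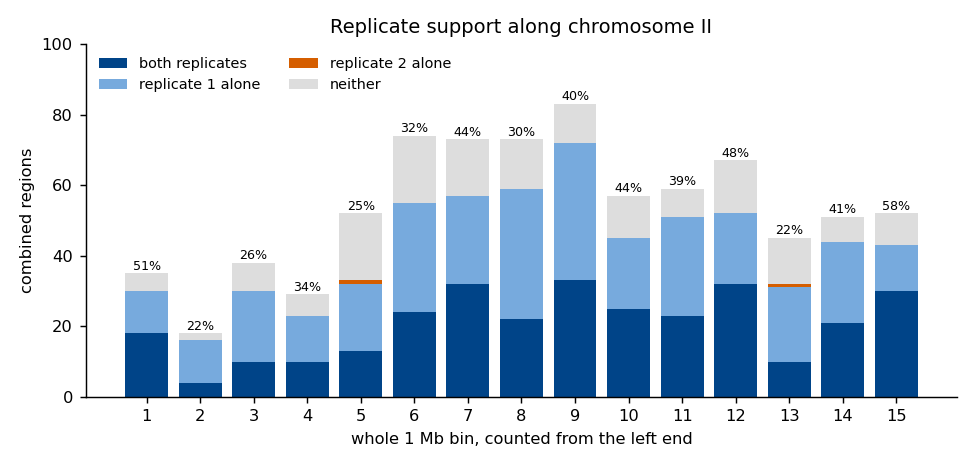
Combined regions in each whole 1 Mb bin of chromosome II, stacked by the replicate lists they overlap, with the percentage in both replicates above each bar. The share in both runs from 22.2% in bins 2 and 13 to 57.7% in bin 15.

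Set against each other, 315 of the 692 replicate 1 regions on II, or 45.5% (41.8 to 49.2%), overlapped replicate 2, against 45.2% of the whole replicate 1 list. The share was 39.9% on the left (32.2 to 48.0%), 44.0% in the centre and 50.8% (44.5 to 57.1%) on the right. In the other direction, 323 of 328 replicate 2 regions, or 98.5% (96.5 to 99.3%), overlapped replicate 1, against 96.9% of the whole replicate 2 list. The other 5 were weak, with q-values from 0.00241 to 0.00988. In the 315 pairs that were each other's greatest overlap, midpoints lay a median of 27 bp apart (quartiles 12 and 66 bp), and 220 pairs (69.8%) agreed within 50 bp. The median on the other autosomes was 29 bp over 1480 pairs. The replicate 1 region was the wider one in 270 pairs (85.7%), with a median width of 507 bp against 400 bp.

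Among the strongest regions, the share on chromosome II moved with the number of ranks taken. It held 9 of the 38 autosomal regions among the 50 strongest of the combined list, 23.7% (13.0 to 39.2%), 11 of 36 in replicate 1 and 10 of 36 in replicate 2, with 18.5% of the autosomal span, which the combined interval includes. Of the 100 strongest it held 17.9%, 22.4% and 24.7% in the 3 lists. Of the 500 strongest it held 57 of 407 autosomal regions, 14.0% (11.0 to 17.7%), and 15.3% and 16.5% in the replicates. That combined interval lay below the 18.5% of the span. It included the share of chromosome II among all autosomal combined regions, 17.1% (17.3% and 17.5% in replicates 1 and 2). Of the 2000 strongest it held 16.8%, 16.8% and 17.9%.

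The left arm held 58 of the 312 regions on II in both replicates, so few of 10 would be expected there. None of the 10 strongest regions on II held by both replicates lay in the left arm. The first, at positions 14403977 to 14408196 in the right arm, had the lowest q-value of the whole combined list, 9.58e-261. It spanned 4220 bp, and replicate 2 called only the 3256 bp from 14404872 to 14408127. Next came compact regions of 753 bp at 5844497 to 5845249 and of 841 bp at 11761569 to 11762409. Close to the latter, with 1 other combined region between them, lay one of 695 bp at 11756575 to 11757269, ranked 13 in the combined list. These 2 ranked 14 and 15 in replicate 2. The fifth to eighth were 1213, 3129, 2830 and 545 bp wide and started at 5543260, 11544733, 6346530 and 8561135. Their ranks in replicate 1 were 19, 21, 26 and 23 and in replicate 2 they were 31, 27, 56 and 22. The last of the 10, of 4372 bp at 9281495 to 9285866, was 1 region in replicate 1 and 3 in replicate 2.

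The widest region on II, at 12097201 to 12103841 in bin 13, was called at very unlike widths by the replicates. The combined list gave 6641 bp, replicate 1 called 2 regions that cover 6337 bp of it, and replicate 2 called 559 bp, from 12102196 to 12102754. Yet its best rank was 35 in replicate 1 and 30 in replicate 2. A region of 3856 bp from 6826608 to 6830463 was likewise 3 regions in replicate 1 and 559 bp in replicate 2. One of 4067 bp at 8741265 to 8745331 was called by replicate 1 alone, at rank 1363.

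The strongest region without replicate 2 support lay in the left arm, at 2570275 to 2571078 (804 bp), with rank 737 in the combined list and 512 in replicate 1. The other regions of that class that were strongest, at 13199581 and 9336565, had combined ranks 1029 and 1087. The pair held by replicate 2 alone, at 4906487 to 4908731 and 12944524 to 12945122, were weak, at ranks 4341 and 4561. The strongest 3 held by neither were 19, 50 and 3 bp wide, at 8718165, 11839780 and 8945334.

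A block of strong regions in the right arm was present in both replicates and absent from the combined list. Replicate 1 had 3 regions between 10541889 and 10560050, of 3797, 6986 and 6878 bp and ranks 92, 15 and 28, which covered 17661 of the 18162 bp. Replicate 2 had 6 regions between 10541893 and 10559652, of 1160 to 4574 bp, which covered 14671 bp. Their ranks ran from 79 to 1577. The combined list had no region in the 24896 bp between 10538279 and 10563176. Of the 11 regions on II in the top 50 of replicate 1, the combined list lacked 2, both in the block, and it lacked none of the 10 from replicate 2. Such absences also occurred elsewhere: on the other autosomes the strongest missing region ranked 1 in replicate 1 and 2 in replicate 2. In all, the combined list had no region at 34 of the 692 replicate 1 regions on II (4.91%, against 3.54% on the other autosomes) and at 8 of the 328 in replicate 2 (2.44%, against 1.03%). The block made up 3 of those 34 and 6 of those 8, so the share in replicate 2 rests mostly on the block. Counts of base pairs on the right move with the block. Covered length on the left over that on the right was 0.332 in replicate 2 with it and 0.407 without it, against 0.571 in the combined list. The cause of its absence was not tested.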

How the data were processed

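The deposited files were 3 lists of regions in GFF3 format, from ChIP replicate 1, ChIP replicate 2 and both combined. The authors called regions with PeakSeq, per the files' source column, on WormBase WS220, per the file headers. The deposited value for each region was a q-value (under 0.01 throughout), with no height or read count. Aligner, caller settings, the rule for combining and how inputs were used are not stated in the labels or headers, and depth is unknown. Header comments record a move from an earlier build. It changed the inner structure of 4 combined, 4 replicate 1 and 1 replicate 2 regions on chromosome II, all still listed, 12 to 28 bp from their old starts. Inputs had no list.

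The 3 equal parts of a chromosome and 1 Mb bins were assigned by midpoint, over the span from 1 to the last base called in any list (15256159 on II). Overlap meant 1 bp or more. Shares have Wilson intervals, counts exact Poisson intervals, ratios exact binomial intervals, differences of shares Newcombe's interval and medians order-statistic intervals. Ranks and classes of 25% or 10% are of whole lists. The regions named were the 10 strongest in both replicates, the 5 widest, up to 3 strongest in each other support class, the 5 longest empty stretches, the extreme bins, the longest run and missing regions of the replicates' top 50. The members and lists were chosen with earlier results of these data known. The split into classes of 25%, single bins of high or low support and the details of the missing block were chosen after seeing the values. The labels do not give the cultures behind the 2 replicates, so the spread between them may be technical. Gene numbers came from a RefSeq table of a later build (WBcel235), and positions were not compared with it, so genes and sequence at the regions were not analysed here. Python 3.11.15, numpy 2.4.6, pandas 2.3.3, scipy 1.17.1 and matplotlib 3.10.9 were used, and the overlap, density and spacing code was tested on simulated data.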

Additional observations from a re-analysis of the deposited data

How the results depend on the processing

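Of 85 recomputed values, 58 stayed within the interval of the reported value or within 1.5 times a count, 26 moved outside it and 1 reversed. The reversal was the support difference between II and the other autosomes, which was −2.17 points without chromosome I. The density ratio of II to the other autosomes fell to 0.825 per protein-coding gene and 0.824 without chromosome V, and each replicate's own list gave 0.923 to 0.932. It rose to 0.972 without chromosome III and 0.937 without I, and was 0.901 without IV, all within its interval. The centre-to-outer ratio moved past its interval for covered base pairs in replicate 1 without the missing block (1.88), and was 1.51 to 1.61 in the replicate lists. The left-to-right ratio kept its direction under each alternative: 0.461 to 0.596 in the replicate lists, 0.487 for regions in both replicates, 0.484 in replicate 2 without the block, 0.440 and 0.332 for covered base pairs in replicates 1 and 2 (0.499 and 0.407 without the block), and 0.380 and 0.967 in the strongest and weakest 25%. Without the emptiest bin it was 0.718. The alternatives that use the block, the emptiest bin, the 25% classes or covered base pairs in a replicate were added after seeing the data.

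Under a 50% reciprocal overlap, support in both replicates was 33.6%, replicate 1 recovery 40.9% and replicate 2 recovery 86.3%, which follows from the stricter rule. The share that overlapped a given replicate, whether or not it overlapped the other, was 38.3 to 79.5%. Replicate 1 cut to the length of replicate 2 was recovered at 80.3%. Median width was 401 to 423.5 bp in the replicate lists, 465 bp at q-values under 0.001 and 532 bp for regions in both. Median spacing was 12067 to 25738 bp in the replicate lists, 13567 bp at q-values under 0.001 and 29054 bp for regions in both, since these lists are shorter. The fullest bin held 34 to 75 and the emptiest 4 to 17 regions in the replicate lists. No paired analysis was possible because the input libraries were not analysed here. A region missing from a list was not called there, which at unknown depth does not show that it was unbound.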
